A study of Mus musculus with 12 samples.

Results

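Lipid-associated macrophage genes are a group of 10 genes, Gpnmb, Spp1, Trem2, Tyrobp, Fabp4, Fabp5, Lpl, Cd9, Lgals3 and Plin2. They were taken by name, each symbol matched 1 Ensembl gene ID of the 55414 in the count table, and all 10 were among the 14310 genes that passed the filter on low counts. In macrophages sorted from ischemic muscle these genes did not move as a block. Gpnmb, Trem2 and Fabp4 were higher at 7 days post injury (dpi) than at 1 dpi, Plin2 and Spp1 were lower, and the other 5 did not pass the test between these time points. The call of Spp1 held in 13 of 20 alternative analyses, and those of Gpnmb, Trem2, Fabp4 and Plin2 in all 20.

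Macrophages with this program form where phagocytes take up lipid from dying cells, as in obese fat, atherosclerotic plaques and demyelinated tissue. In mouse adipose tissue the program depends on Trem2, a surface receptor that binds lipids and apolipoproteins and signals through the adaptor protein Tyrobp. The other members release fatty acids outside the cell (Lpl), carry them inside it (Fabp4, Fabp5), coat the droplets that store them (Plin2), or sit at the cell surface, in lysosomes or in the matrix (Cd9, Gpnmb, Lgals3, Spp1). Injured muscle is cleared of necrotic fibres by macrophages before it regenerates. RNA was measured here, not lipid.

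The study followed macrophages after hindlimb ischemia, an injury made by ligating and removing the femoral artery, in C57BL6J wild type males of 8 to 12 weeks. F4/80+CD64+ macrophages within the CD45+CD11b+ cells were sorted from the digested calf muscle and profiled by RNA-seq in 12 libraries, 3 each at 1, 2, 4 and 7 dpi. All 12 libraries come from injured limbs, so every comparison is between time points after injury and none is with resting muscle. If cells of several mice were pooled into a library is not stated, and the P values below therefore rest on the spread between libraries, part of which may be technical. In a bulk sample, fewer cells of a type and less RNA per cell cannot be told apart.

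The libraries held between 19528316 and 33599472 counts. One gene without a symbol in the reference, ENSMUSG00000119584, took 14.8% to 55.7% of them. Its share was 52.9% to 55.7% at 1 dpi, 40.3% to 49.7% at 2 and 4 dpi and 14.8% to 30.1% at 7 dpi. The factor that scales each library differed as well, at 0.65 to 0.73 at 1 dpi, 0.98 to 1.05 at 2 dpi and 1.35 to 1.7 at 7 dpi. In comparisons with 1 dpi or with 7 dpi, that from 1 to 2 dpi included, this share and the time point cannot be told apart. Without the gene 8992759 to 18581365 counts were left. The 10 members took 0.263% to 2.26% of those. All 8 markers of the sorted cells, among them Adgre1 (F4/80) and Fcgr1 (CD64), had counts in every library, and their summed level was 5657 to 6766 CPM (counts scaled to the size of the library) at 1 dpi and 10110 to 14820 CPM at 7 dpi. Most of this sum was Lyz2 (lysozyme), at 3009 to 4245 and 7122 to 11690 CPM. From 1 to 7 dpi Lyz2, Adgre1, Csf1r and Mertk rose, whereas Fcgr1 (log2FC = -1.63) and Itgam, which encodes CD11b (-2.33), fell. The summed level of 10 fibroblast markers was 24.6 to 67 CPM at 1 dpi and 463 to 872 CPM at 7 dpi, that of 10 muscle fibre markers 6.18 to 18.1 and 40.3 to 102 CPM, and that of 11 neutrophil markers 211 to 350 and 44.9 to 161 CPM. These summed levels differed between 1 and 7 dpi, and their part in the results was not tested. Few genes carried much of some sums. At 7 dpi Col1a1 was at 142.6 to 313.5 CPM in the fibroblast sum. In the neutrophil sum Csf3r was at 41.4 to 51.4 CPM and Mmp9 at 1.4 to 108 CPM, while Ly6g had 6 counts in all libraries together. Replicate 2 of 7 dpi stood apart, with the highest share of mitochondrial counts (18.9%, against 4.77% to 12.5% in the other 11 libraries) and the lowest level of 9 of the 10 members at 7 dpi.

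Levels are given as CPM scaled by TMM, a factor that corrects for the make-up of each library, and in the order of replicates 1, 2 and 3. Differences are log2 fold changes (log2FC) from edgeR's quasi-likelihood test over all 14310 genes, with Benjamini-Hochberg adjusted P. A gene was called a DEG, and is said to rise or fall, with an adjusted P under 0.05 and an absolute log2FC above 1. From 1 to 2 dpi, 3 of the 10 members rose and none fell, where 5.09% of all genes rose and 3.97% fell. With DESeq2 none fell either, and at an unadjusted P of 0.0356 Tyrobp was lower in edgeR. From 2 to 4 dpi, 1 rose and 1 fell, against 8.02% and 3.88% of all genes. From 4 to 7 dpi none rose and 2 fell, against 7.44% and 5.2%. None rose with DESeq2 either, and 0 members were higher at an unadjusted P under 0.05. Between the ends of the series, 1 and 7 dpi, 3 rose and 2 fell, against 19.7% and 14%. In the test for a difference at any time point 7 of the 10 passed, where 61.5% of all genes did. The groups of 3 libraries did not overlap for 6 members between 1 and 2 dpi (39.4% of all genes), 6 between 2 and 4 dpi (44.2%), 5 between 4 and 7 dpi (40%) and 5 between 1 and 7 dpi (55.9%). Successive comparisons share the libraries of the time point between them.

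**Figure D1:**
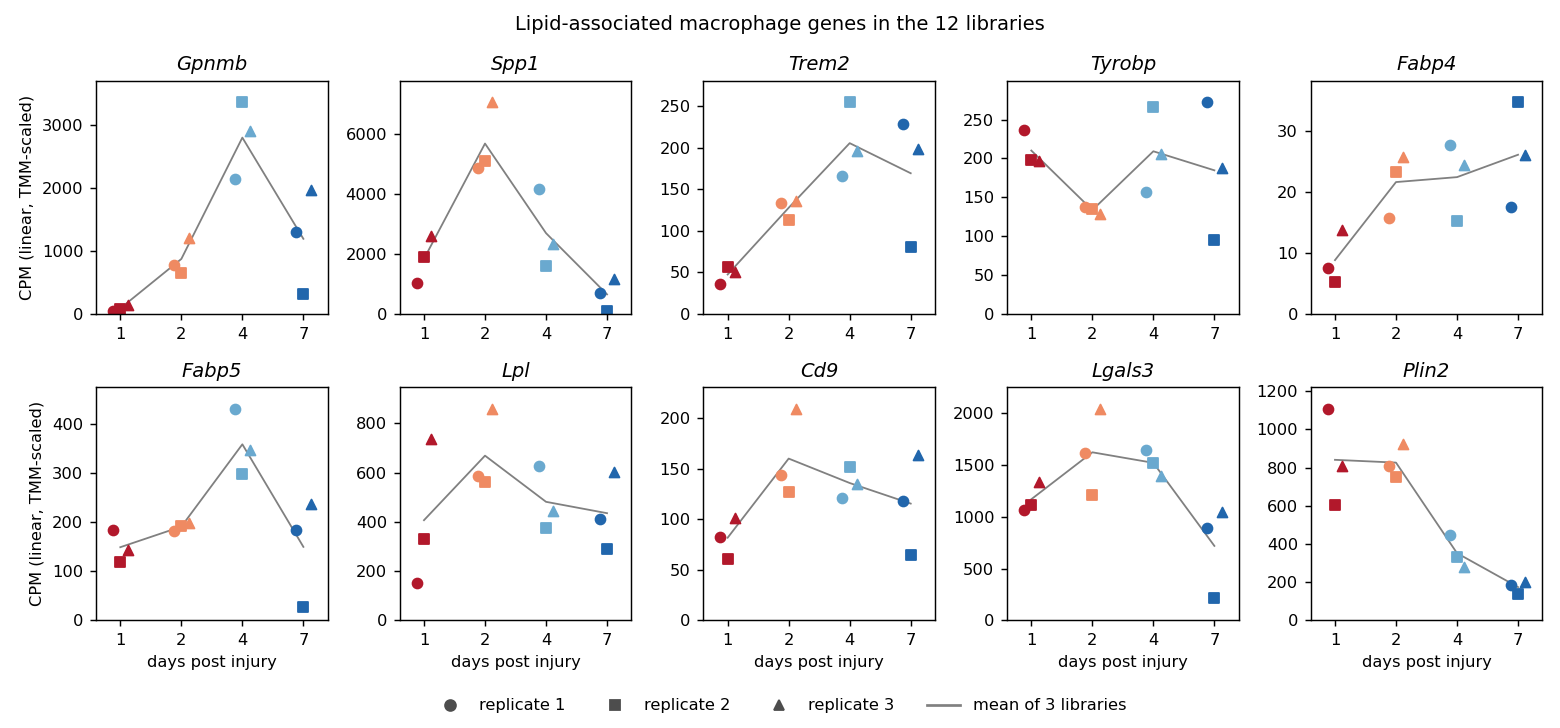
Level of each of the 10 genes in the 12 libraries, in TMM-scaled CPM on a linear axis from 0, against days post injury. Each point is a library (circle, square and triangle for replicates 1, 2 and 3) and the grey line joins the means of 3 libraries. Gpnmb reached its highest level at 4 dpi (2141 to 3364 CPM) and Spp1 at 2 dpi (4879 to 7062 CPM), whereas Plin2 was lowest at 7 dpi (139.6 to 201 CPM).

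Trem2 rose between 1 and 2 dpi while Tyrobp, the adaptor that carries its signal, was not called in any comparison. Trem2 was at 35.8, 56.6 and 49.9 CPM at 1 dpi, 134, 114 and 136 CPM at 2 dpi, 166, 254 and 196 CPM at 4 dpi and 229, 80.7 and 198 CPM at 7 dpi. All 3 libraries of 2, 4 and 7 dpi lay above those of 1 dpi, and at 7 dpi replicate 2 lay below every library of 2 and 4 dpi. Trem2 was 2.69-fold higher at 2 dpi than at 1 dpi (log2FC = 1.43, SE of 0.30, adjusted P = 0.00493, edgeR) and 3.56-fold higher at 7 dpi than at 1 dpi (log2FC = 1.83, SE of 0.31, adjusted P = 0.000137). Between 2 and 4 dpi (log2FC = 0.69, SE of 0.30, adjusted P = 0.115) and between 4 and 7 dpi (log2FC = -0.28, SE of 0.29, adjusted P = 0.503) it did not pass the test. For Tyrobp the levels were 236, 198 and 196 CPM at 1 dpi, 137, 135 and 128 CPM at 2 dpi, 156, 266 and 205 CPM at 4 dpi and 272, 94.7 and 187 CPM at 7 dpi. The 3 libraries of 2 dpi were the narrowest group and lay below those of 1 dpi, but the difference did not pass the test (log2FC = -0.65, SE of 0.29, adjusted P = 0.15, edgeR), nor did that from 2 to 4 dpi (log2FC = 0.65, SE of 0.29, adjusted P = 0.123). With only the 6 libraries compared, adjusted P of Tyrobp in edgeR was 0.00112 from 1 to 2 dpi (log2FC = -0.68) and 0.0202 from 2 to 4 dpi (0.68). Without replicate 2 of 7 dpi it was 0.0343 and 0.0246 (-0.66 and 0.67), and with no filter 0.0484 and 0.0357. The absolute log2FC stayed under 1, so neither step was called in any of 20 alternatives. Over all time points, with all 12 libraries, Tyrobp had an adjusted P = 0.165 and Trem2 of 0.000197. Hcst, the gene of a related adaptor that lies 126 bases from Tyrobp on the opposite strand, had only 746 counts in the 12 libraries together.

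The pair can also be read as a ratio of counts within a library, which does not depend on how libraries are scaled. There were 0.152 to 0.285 Trem2 counts for each Tyrobp count at 1 dpi, 0.84 to 1.05 at 2 dpi, 0.954 to 1.06 at 4 dpi and 0.84 to 1.06 at 7 dpi. The ratio at 1 dpi lay below that of all 9 later libraries, which overlapped each other, and replicate 2 of 7 dpi (0.852) lay among them. Counts are not divided by gene length, so a ratio near 1 does not mean equal levels. In RPKM (CPM per kilobase of exon) Trem2 averaged 25.8 and Tyrobp 200 at 2 dpi. By the longest coding transcript these means were 117 and 237. The ratio was chosen after the values were seen and is given with no test.

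Of 26 other genes of the Trem and Tyrobp pathway that were tested, 6 fell from 1 to 2 dpi (median log2FC = -0.33, against 0.01 over all genes), and 2 rose and 7 fell from 1 to 7 dpi (median -0.22, against 0.16). Trem1, a receptor of the same family that amplifies inflammation and also signals through Tyrobp, was at 81.4 to 140.5 CPM at 1 dpi and at 0.123 to 0.864 CPM at 7 dpi (log2FC = -7.43, SE of 0.66, adjusted P = 4.69e-07, edgeR). Treml2 (log2FC = -2.48) and Pilrb1 (-2.46), both receptors of myeloid cells, fell from 1 to 2 dpi, as did the Src family kinase Fgr (-1.32). Adam10, a protease that can cut Trem2 from the cell surface, fell from 1 to 7 dpi (-1.58). Apoe, an apolipoprotein that Trem2 binds, rose at 2 of the 3 steps and was at 423 to 696 CPM at 1 dpi and at 8373 to 20480 CPM at 7 dpi (log2FC = 4.64, SE of 0.44, adjusted P = 7.84e-07).

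Gpnmb had the largest change of the 10 members. It encodes a glycoprotein of lysosomes and the cell surface that is made by phagocytic macrophages. The gene was at 43.1, 85.1 and 137 CPM at 1 dpi, 774, 647 and 1200 CPM at 2 dpi, 2141, 3364 and 2900 CPM at 4 dpi and 1295, 315 and 1971 CPM at 7 dpi. Every library of 2 dpi lay above those of 1 dpi and every library of 4 dpi above those of 2 dpi, whereas the libraries of 7 dpi lay below those of 4 dpi and spread over a wide range. Gpnmb rose 9.86-fold from 1 to 2 dpi (log2FC = 3.30, SE of 0.53, adjusted P = 0.000658, edgeR) and 3.21-fold from 2 to 4 dpi (log2FC = 1.68, SE of 0.49, adjusted P = 0.025). From 4 to 7 dpi it did not pass the test (log2FC = -1.23, SE of 0.49, adjusted P = 0.0735), and at 7 dpi it was 13.5-fold higher than at 1 dpi (log2FC = 3.75, SE of 0.54, adjusted P = 3.65e-05). The step from 2 to 4 dpi lost its call when replicate 1 or 2 of 2 dpi (log2FC = 1.62 and 1.50) or replicate 2 or 3 of 4 dpi (1.53 and 1.65) was left out, with an adjusted P of 0.0669 to 0.101.

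Among 7 tested genes related to Gpnmb by binding or regulation, 1 fell from 1 to 2 dpi, and 1 rose and 3 fell from 1 to 7 dpi. The 1 that fell at the first step was Tfec (log2FC = -1.98, SE of 0.27, adjusted P = 0.000217, edgeR), a transcription factor of the Mitf family, to which regulators of Gpnmb belong. Tfec was low, at 12.3 to 21.4 CPM at 1 dpi and 3.29 to 4.88 CPM at 2 dpi, and Mitf, Tfe3 and Tfeb were not called in any comparison. Cd44 (-1.48) and Sdc4 (-1.83), surface proteins to which Gpnmb binds, fell from 1 to 7 dpi, as did Tfec (-1.13). Hpse rose, as Gpnmb did, from 2 to 4 dpi (2.35, SE of 0.25, adjusted P = 1.15e-05, edgeR) and from 1 to 7 dpi (1.13).

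Gpnmb and Trem2 had the most similar courses of all 45 pairs of members (Pearson r = 0.97, Spearman rho = 0.93 over 12 libraries). After the mean of each time point was subtracted r was 0.88, and without any 1 library it was 0.95 to 0.99. The 12 points share 4 time points, the scaling of each library and the low replicate of 7 dpi, so r describes these libraries. The promoters of the pair are shown because the genes moved together. They are the 250 bases before the start of the gene in RefSeq on GRCm38.p6, read 5′ to 3′ on the strand of the gene, at chr6:49036268-49036517, plus strand, and chr17:48346151-48346400, plus strand. Capitals mark matches to 7 short motifs searched on both strands.
Gpnmb: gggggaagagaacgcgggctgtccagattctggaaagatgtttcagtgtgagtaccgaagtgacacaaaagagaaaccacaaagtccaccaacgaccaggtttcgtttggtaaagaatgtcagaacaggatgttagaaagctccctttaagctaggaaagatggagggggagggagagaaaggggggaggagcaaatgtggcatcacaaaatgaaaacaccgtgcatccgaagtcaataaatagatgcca
Trem2: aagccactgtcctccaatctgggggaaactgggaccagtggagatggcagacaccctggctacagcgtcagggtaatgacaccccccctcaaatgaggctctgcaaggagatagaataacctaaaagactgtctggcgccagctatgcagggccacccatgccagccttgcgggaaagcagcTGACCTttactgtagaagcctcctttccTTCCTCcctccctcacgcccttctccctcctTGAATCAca
Mitf and Tfe factors are known to bind CACGTG, and a variant for which they are also known is TCATGTG. The other motifs were that of AP-1, written TGANTCA, that of the macrophage factor PU.1, written GAGGAA, the site at which nuclear receptors bind, AGGTCA, the TATA box, searched as TATAAA, and the box of Sp factors, CCCGCCC. In the Gpnmb window none of the 7 was found. The Trem2 window held TGANTCA 9 bases before the start, GAGGAA on the opposite strand at 40 bases and AGGTCA on the opposite strand at 68 bases, none sharing a base with another. The first match reads TGAATCA, with A in the middle, and so is not the AP-1 site itself. Of 32851 mouse promoter windows of the same length 6.75% held TGANTCA, 23.3% GAGGAA, 14% AGGTCA, 6.02% CACGTG and 3.25% TCATGTG. A match is a description of these letters and no binding was measured here. The bases after the Gpnmb start in RefSeq were not found in a GENCODE transcript, so that start was not checked.

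Spp1 encodes osteopontin, a secreted matrix protein that binds integrins and Cd44 and draws in macrophages. Its levels were 1028, 1888 and 2599 CPM at 1 dpi, 4879, 5108 and 7062 CPM at 2 dpi, 4155, 1606 and 2324 CPM at 4 dpi and 684, 106 and 1169 CPM at 7 dpi. It was highest in all 3 libraries of 2 dpi, lower in those of 4 dpi and lower again in those of 7 dpi, with no overlap between these 3 time points, and those of 1 dpi overlapped the libraries of 4 and of 7 dpi. The increase from 1 to 2 dpi, 3.09-fold, did not pass the test (log2FC = 1.63, SE of 0.57, adjusted P = 0.074, edgeR), nor did the difference from 2 to 4 dpi (log2FC = -1.08, SE of 0.57, adjusted P = 0.198). Both were called in 3 of 20 alternatives. These were only the 6 libraries compared (adjusted P = 0.0017 and 0.0275), replicate 2 of 7 dpi left out (0.00681 and 0.0451) and no filter on low counts. Spp1 fell from 4 to 7 dpi (log2FC = -2.05, SE of 0.58, adjusted P = 0.0182) and from 1 to 7 dpi (log2FC = -1.49, SE of 0.57, adjusted P = 0.0397), although replicate 3 of 7 dpi (1169 CPM) lay above replicate 1 of 1 dpi (1028 CPM). The fall from 4 to 7 dpi was not called without replicate 1 of 4 dpi (log2FC = -1.60, adjusted P = 0.0698) or replicate 1 of 7 dpi (-2.08, 0.0543), and that from 1 to 7 dpi not without replicate 2 (-1.40, 0.0871) or 3 (-1.09, 0.164) of 1 dpi, replicate 3 of 2 dpi (-1.42, 0.0549), or replicate 1 (-1.51, 0.0897) or 2 (-0.97, 0.066) of 7 dpi. With only the 6 libraries compared neither fall was called, and with the unnamed gene left out that from 1 to 7 dpi was not. Spp1 shares 309 exonic bases with the gene model Gm42793 on the same strand, and reads of the pair cannot be told apart there.

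The ratio of Gpnmb to Spp1 was lowest at 1 dpi and highest at 7 dpi. For each Spp1 count there were 0.0419 to 0.0528 Gpnmb counts at 1 dpi, 0.127 to 0.17 at 2 dpi, 0.515 to 2.09 at 4 dpi and 1.69 to 2.99 at 7 dpi. The libraries of 1, 2 and 4 dpi did not overlap, and those of 4 and 7 dpi did. Replicate 2 of 7 dpi, low in both genes, had the highest ratio (2.99). Per kilobase of exon, which these counts leave out, the mean of Gpnmb at 7 dpi (183 RPKM) was below that of Spp1 (396 RPKM). This ratio of counts too was chosen after the values were seen and is given with no test.

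**Figure D2:**
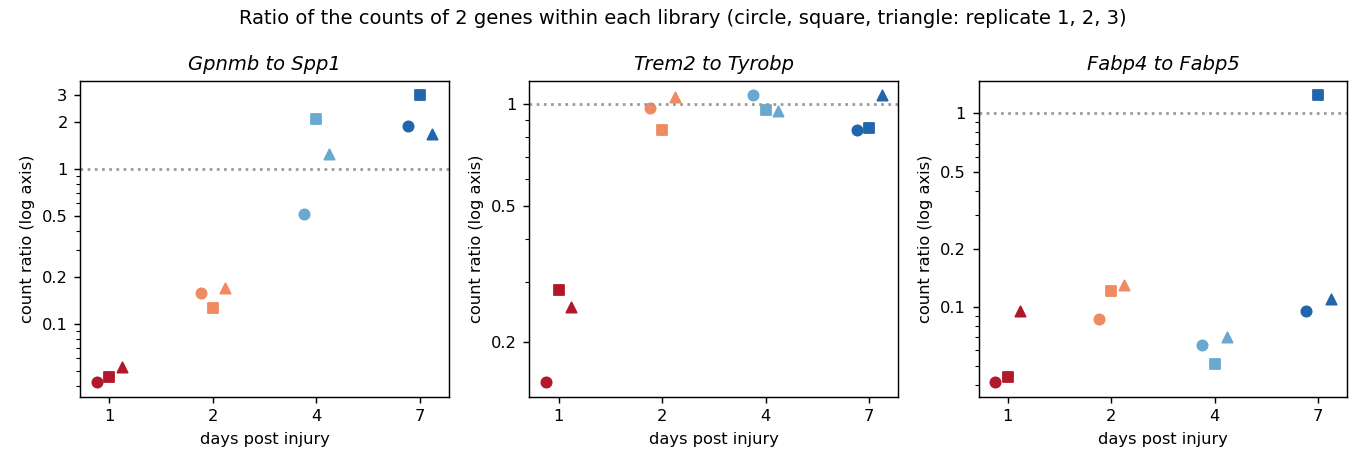
Ratio of the raw counts of a pair of genes within each library, on a log axis, against days post injury, with a dotted line at 1. Counts are not divided by gene length, so the line does not mark equal levels. Gpnmb to Spp1 went from 0.0419 to 0.0528 at 1 dpi to 1.69 to 2.99 at 7 dpi, Trem2 to Tyrobp was lowest in the 3 libraries of 1 dpi, and Fabp4 to Fabp5 was 1.24 in replicate 2 of 7 dpi and at most 0.13 in the other 11 libraries.

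Of 9 tested genes of receptors for Spp1, 2 rose and 1 fell from 2 to 4 dpi, and 2 rose and 2 fell from 1 to 7 dpi. Itga9 and Itga4, integrin chains that bind it, rose from 2 to 4 dpi (log2FC = 2.13 and 1.17) and were higher at 7 than at 1 dpi (3.66 and 1.73), while Itga8 (-2.54) and Cd44 (-1.48) were lower.

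Lgals3 encodes galectin-3, a lectin of macrophages that binds sugars on the cell surface and on damaged lysosomes. It was at 1060, 1110 and 1335 CPM at 1 dpi, 1612, 1209 and 2042 CPM at 2 dpi, 1645, 1516 and 1397 CPM at 4 dpi and 893, 213 and 1049 CPM at 7 dpi. The libraries of 2 dpi overlapped those of 1 and of 4 dpi, and the libraries of 7 dpi lay below all of these. No comparison passed the test, with the difference from 4 to 7 dpi (log2FC = -1.08, SE of 0.39, adjusted P = 0.0505, edgeR) and the test of any time point (adjusted P = 0.0591) nearest to it. Without replicate 3 of 7 dpi, Lgals3 fell from 4 to 7 dpi (log2FC = -1.45, adjusted P = 0.0179), and it was called there with DESeq2 as well (adjusted P = 0.0278), at the edge of the threshold on fold change. Among 5 tested genes of other galectins and their ligand Lgals3bp, Lgals1 fell from 4 to 7 dpi (log2FC = -1.93, SE of 0.30, adjusted P = 0.000781) and Lgals3bp, a secreted protein that galectin-3 binds, rose from 2 to 4 dpi (2.00, SE of 0.25, adjusted P = 6.57e-05).

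Spp1 and Lgals3 were the second most similar pair (r = 0.92, rho = 0.83, r = 0.91 within time points), with r of 0.82 to 0.95 when 1 library was left out and the lowest value without replicate 2 of 7 dpi. Fabp5 and Lgals3 followed (r = 0.86, rho = 0.52), but r was 0.36 without that library. Their promoters in RefSeq on GRCm38.p6 are shown for comparison with those of Gpnmb and Trem2, at chr5:104434861-104435110, plus strand, and chr14:47373610-47373859, plus strand, again 250 bases 5′ to 3′ with motif matches in capitals.
Spp1: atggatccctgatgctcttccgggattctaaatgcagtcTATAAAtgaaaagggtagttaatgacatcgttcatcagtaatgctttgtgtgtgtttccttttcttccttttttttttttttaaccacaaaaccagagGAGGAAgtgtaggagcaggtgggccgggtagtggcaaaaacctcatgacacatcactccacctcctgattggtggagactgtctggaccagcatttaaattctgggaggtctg
Lgals3: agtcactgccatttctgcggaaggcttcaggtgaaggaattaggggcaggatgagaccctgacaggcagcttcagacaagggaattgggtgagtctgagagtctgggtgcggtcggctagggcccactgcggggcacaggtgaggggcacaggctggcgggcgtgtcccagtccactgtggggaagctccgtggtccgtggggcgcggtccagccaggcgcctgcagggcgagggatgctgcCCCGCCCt
The Spp1 window held TATAAA 211 bases and GAGGAA 113 bases before the start, and the Lgals3 window CCCGCCC at 8 bases. A TATA box lies close to the start it serves, so TATAAA at 211 bases is a match of letters only. No motif of the 7 was found in both. Of all windows 12.4% held TATAAA and 23.4% CCCGCCC. RefSeq gave Spp1 another start downstream, whose window held none of the 7.

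Cd9 encodes a tetraspanin, a membrane protein that organises other surface proteins and limits the fusion of macrophages. Its levels were 82.8, 60.7 and 102 CPM at 1 dpi, 144, 126.6 and 209 CPM at 2 dpi, 121, 152 and 135 CPM at 4 dpi and 118, 64.5 and 163 CPM at 7 dpi. The libraries of 2 dpi all lay above those of 1 dpi, while those of 2, 4 and 7 dpi overlapped. Cd9 passed the test of any time point (adjusted P = 0.0423, edgeR) but was not called from 1 to 2 dpi, where its log2FC of 0.97 (SE of 0.29, adjusted P = 0.0355) was just under the threshold on fold change. Its exons share 218 bases with Gm26728 on the opposite strand, and the protocol does not mark strand, so counts there cannot be told apart. Of 19 tested genes of other tetraspanins and of their partners Igsf8 and Ptgfrn, 2 rose and 2 fell from 1 to 2 dpi, and 6 rose and 2 fell from 1 to 7 dpi, with Cd81, a close relative of Cd9, at a log2FC of 3.21 (SE of 0.29, adjusted P = 5.74e-07), and Cd53, a tetraspanin of leukocytes, at -1.85.

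Lpl encodes lipoprotein lipase, which frees fatty acids from triglyceride in lipoproteins. The libraries were at 151, 332 and 738 CPM at 1 dpi, 585, 562 and 860.1 CPM at 2 dpi, 626, 374 and 444 CPM at 4 dpi and 412, 289.7 and 604 CPM at 7 dpi. Levels at 1 dpi spanned those of all later libraries but replicate 3 of 2 dpi, and the 4 time points overlapped each other. No comparison passed the test (log2FC = 0.72, -0.47 and -0.15 at the 3 successive steps and 0.10 between the ends, each with an SE of 0.41), and neither did that of any time point (adjusted P = 0.365, edgeR). Without replicate 3 of 1 dpi, Lpl rose from 1 to 2 dpi (log2FC = 1.48, adjusted P = 0.0208). Of 10 tested genes that regulate Lpl, Angptl4, its secreted inhibitor, rose from 2 to 4 dpi (log2FC = 1.41, SE of 0.31, adjusted P = 0.00453) and fell from 4 to 7 dpi (-1.32, SE of 0.30, adjusted P = 0.0064). From 1 to 7 dpi, 2 of the 10 rose and 1 fell. Sort1, a sorting receptor, rose (1.48, SE of 0.31, adjusted P = 0.00107), as did the protease Pcsk6, which was near 0 throughout (at most 0.164 CPM at 1 dpi and 0.707 to 1.30 CPM at 7 dpi, adjusted P = 0.0252). Furin, a protease that cleaves Lpl, fell (-2.07, SE of 0.19, adjusted P = 6.27e-07).

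Fabp4 and Fabp5 encode fatty acid binding proteins of the cytosol, the first known from fat cells, capillary endothelium and macrophages and the second from skin and macrophages. Fabp4 was low, at 7.54, 5.25 and 13.8 CPM at 1 dpi, 15.8, 23.4 and 25.9 CPM at 2 dpi, 27.7, 15.3 and 24.5 CPM at 4 dpi and 17.5, 34.8 and 26.2 CPM at 7 dpi. All libraries of 2, 4 and 7 dpi lay above those of 1 dpi and overlapped each other. Fabp4 rose 2.44-fold from 1 to 2 dpi (log2FC = 1.29, SE of 0.34, adjusted P = 0.0184, edgeR) and was 2.95-fold higher at 7 dpi than at 1 dpi (log2FC = 1.56, SE of 0.34, adjusted P = 0.00125). The first call was lost when replicate 1 (log2FC = 1.20) or 2 (1.03) of 1 dpi, or 2 (1.24) or 3 (1.15) of 2 dpi, was left out, with an adjusted P of 0.0571 to 0.0767. In replicate 2 of 7 dpi, which had the most Fabp4, the summed level of 10 endothelial markers was 112.6 CPM against 31.5 to 68.6 CPM in the other libraries, and that of 10 adipocyte markers 22.2 against 7.13 to 15 CPM. Of the adipocyte markers only Lipe and Car3 passed the filter, Lep and Cidea had no count and Adipoq had 4 counts in 1 library. Without that library Fabp4 was still called from 1 to 7 dpi (log2FC = 1.32, adjusted P = 0.00697). The endothelial sum was 51.6 to 112.6 CPM in the libraries of 7 dpi, against 31.5 to 44.2 CPM at 1 dpi. From 1 to 7 dpi 4 of the 10 endothelial markers rose and none fell. Leaving out 1 library therefore does not separate the rise of Fabp4 from that of these markers, and their part in it was not tested.

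Fabp5 was at 184, 119.6 and 144 CPM at 1 dpi, 181, 193 and 199 CPM at 2 dpi, 431, 298 and 347 CPM at 4 dpi and 184, 28 and 237 CPM at 7 dpi. The 3 libraries of 4 dpi lay above all others, and replicate 2 of 7 dpi far below. Fabp5 passed the test of any time point (adjusted P = 0.049, edgeR) but no step, with the largest differences from 2 to 4 dpi (log2FC = 0.91, SE of 0.46, adjusted P = 0.177) and from 4 to 7 dpi (log2FC = -1.26, SE of 0.46, adjusted P = 0.0533). Without replicate 3 of 7 dpi it fell from 4 to 7 dpi (log2FC = -1.75, adjusted P = 0.017). There were 0.041 to 0.0959 Fabp4 counts for each Fabp5 count at 1 dpi, 0.087 to 0.13 at 2 dpi, 0.0512 to 0.0706 at 4 dpi, and 0.0953, 0.11 and 1.24 at 7 dpi, where the last is replicate 2. Neighbouring genes of the family took almost no counts, with 1 for Pmp2, 2 for Fabp9 and none for Fabp12, and the near copy Fabp5l2 had 15 in all.

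Of 15 tested genes of fatty acid and lipoprotein uptake, 1 rose from 1 to 2 dpi, and 1 rose and 6 fell from 1 to 7 dpi (median log2FC = -0.96, against 0.16 over all genes). Cd36, a scavenger receptor and fatty acid transporter, was at 692 to 1219 CPM at 1 dpi, 764 to 903 CPM at 4 dpi and 147.6 to 266 CPM at 7 dpi, and fell from 4 to 7 dpi (log2FC = -2.02, SE of 0.27, adjusted P = 0.000379, edgeR). Olr1, a receptor for oxidised lipoprotein (-5.05), and the fatty acid transporter Slc27a4 (-1.83) fell from 1 to 7 dpi. Among 20 genes of fatty acid oxidation, Hadh (1.82), Decr1 (1.20) and Cpt2 (1.23) rose from 1 to 2 dpi, and from 4 to 7 dpi Slc25a20 (-1.08) and Hadh (-1.12) fell.

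Plin2, which coats lipid droplets, was lower at 7 dpi than at 1 dpi, when Gpnmb and Trem2 were higher. Its levels were 1109, 603 and 811 CPM at 1 dpi, 807, 748 and 924 CPM at 2 dpi, 445, 331 and 279.7 CPM at 4 dpi and 183, 139.6 and 201 CPM at 7 dpi. Libraries of 1 and 2 dpi overlapped, all of 4 dpi lay below them, and all of 7 dpi below those of 4 dpi, with replicate 2 of 7 dpi close to its group. Plin2 did not pass the test from 1 to 2 dpi (log2FC = -0.03, SE of 0.24, adjusted P = 0.963, edgeR), fell 2.35-fold from 2 to 4 dpi (log2FC = -1.23, SE of 0.25, adjusted P = 0.00234) and was 4.82-fold lower at 7 dpi than at 1 dpi (log2FC = -2.27, SE of 0.25, adjusted P = 3.49e-06). From 4 to 7 dpi it fell 2.02-fold (log2FC = -1.01, SE of 0.24, adjusted P = 0.00807), at the edge of the threshold on fold change. It was therefore not called there without replicate 1, 2 or 3 of 1 dpi (log2FC = -0.98 each), replicate 3 of 2 dpi (-0.98), replicate 1 of 4 dpi (-0.83) or replicate 2 of 7 dpi (-0.86), with an adjusted P of at most 0.0349, or with DESeq2 (-0.92, adjusted P = 0.00118). The Plin2 promoter in RefSeq on GRCm38.p6 is shown because Plin2 fell in each of the 20 alternatives from 2 to 4 dpi and from 1 to 7 dpi, at chr4:86670060-86670309, minus strand, 250 bases 5′ to 3′, with AGGTCA on the opposite strand in capitals, 218 bases before the start.
Plin2: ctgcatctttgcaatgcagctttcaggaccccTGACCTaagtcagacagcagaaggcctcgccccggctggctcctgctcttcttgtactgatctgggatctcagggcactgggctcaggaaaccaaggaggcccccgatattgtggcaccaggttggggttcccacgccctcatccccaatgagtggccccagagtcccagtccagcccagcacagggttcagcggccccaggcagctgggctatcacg

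**Figure D3:**
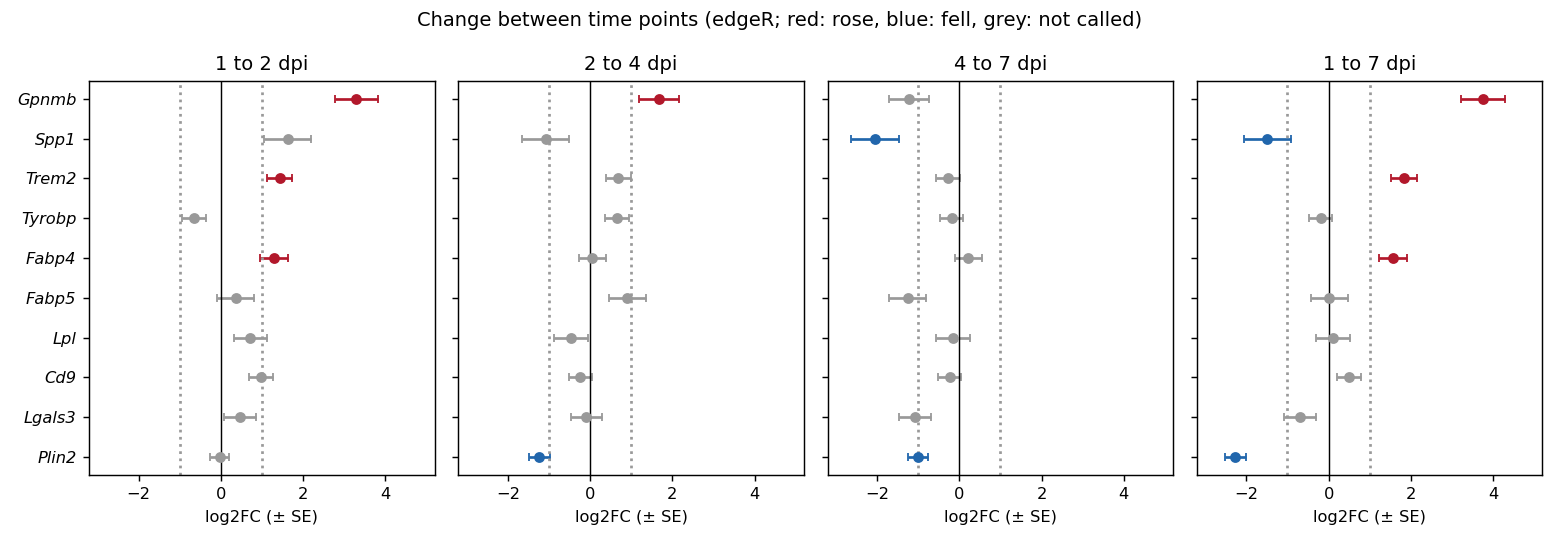
Log2FC of the 10 genes in 4 comparisons, with bars of 1 SE each, from edgeR over 12 libraries. Red points rose and blue points fell by the thresholds (dotted lines at a log2FC of 1 and -1), and grey points were not called. Gpnmb, Trem2 and Fabp4 rose from 1 to 2 dpi, whereas Plin2 fell from 2 to 4 dpi.

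Of 18 other lipid droplet genes tested, 4 fell from 1 to 2 dpi, when Plin2 had a log2FC of -0.03. They were G0s2, an inhibitor of the lipase Atgl (log2FC = -4.49, SE of 0.83, adjusted P = 0.00201, edgeR), Hilpda, another inhibitor of Atgl that hypoxia raises (-1.68), Dgat2, which makes triglyceride (-1.57), and Soat2, which makes cholesterol ester (-2.83). Hilpda was at 91.3 to 269 CPM at 1 dpi, 53.8 to 67.8 CPM at 2 dpi and 6.44 to 18.3 CPM at 7 dpi. From 4 to 7 dpi Soat1 (-1.17) and Hilpda (-1.42) fell and Mgll, which splits monoglyceride, rose (1.95). G0s2, Soat2 and Mgll had only 594, 310 and 838 counts in the 12 libraries together, so their fold changes rest on few counts. The summed level of neutrophil markers was also lower at 2 dpi than at 1 dpi, and its part in the falls between them was not tested.

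**Figure D4:**
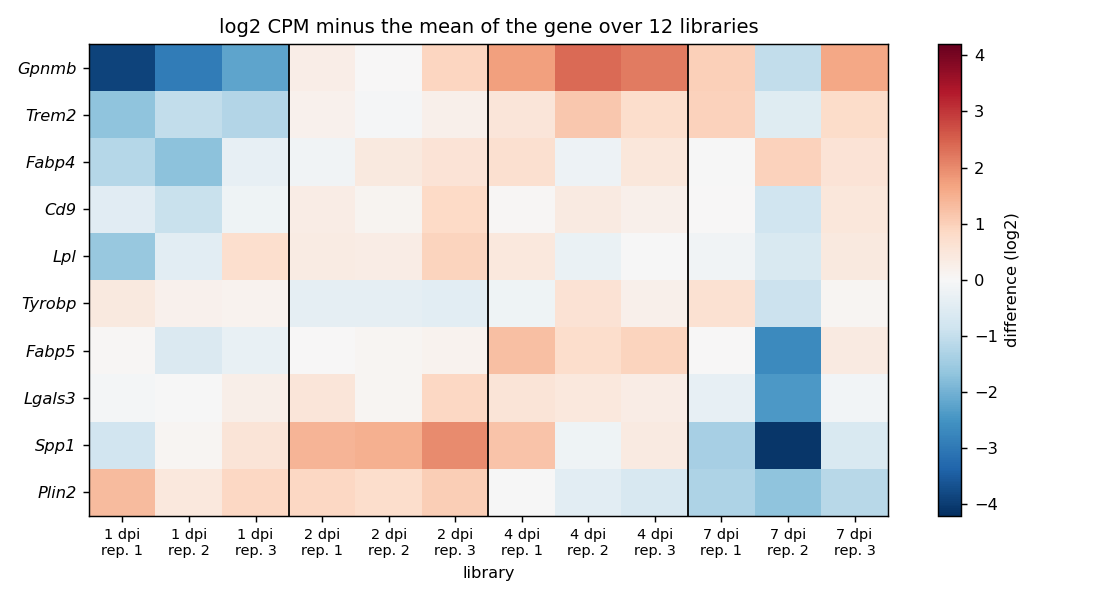
Log2 CPM of each gene minus its mean over the 12 libraries, as colour, with libraries in columns ordered by time point. Gpnmb and Trem2 were below their means in the 3 libraries of 1 dpi, Plin2 was below its mean in the 3 libraries of 7 dpi, and replicate 2 of 7 dpi was the lowest library of 7 dpi for every gene but Fabp4.

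Levels of different genes were compared per kilobase of exon. On this scale Spp1 had the highest mean of the 10 at 1, 2 and 4 dpi and Fabp4 the lowest at all time points, by the union of exons and by the longest coding transcript. At 7 dpi Spp1 (396 RPKM) and Lgals3 (387 RPKM) were first by the union of exons and changed places by the longest transcript (433 and 506 RPKM), which is less than their spread between libraries.

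Among the 4778 genes whose log2 CPM averaged 4 or more, the gene closest to Gpnmb over the 12 libraries was Dpp7 (r = 0.993), followed by Sptssa (0.988) and S1pr2 (0.976). Closest to Trem2 were Tex264 (0.988), Gpnmb itself (0.970) and the pseudogene Cd63-ps (0.968). For Spp1 they were Mlec (0.972), Sars (0.971) and Ola1 (0.969), and for Lgals3 Cd68 (0.970) and Atp6v0e (0.965). Plin2 was closest to Mmadhc (0.986), Slc25a24 (0.985) and Memo1 (0.985). Fabp5 had Plbd2 (0.949), Reep5 and Sumo3 as its closest genes, Tyrobp had Vapb (0.903), Atp6v1f and Neu1, and Fabp4 had Phka2 (0.902), Tpm1 and Trim35. The lowest values were those of Cd9, closest to Sgk1 (0.880), Slc6a8 and Slc27a1, and of Lpl, closest to Htatsf1 (0.838), Frrs1 and Plxna1. These are descriptions over 12 libraries that share their time points and scaling.

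Finally, 30 further genes known from lipid-associated macrophages were tested. Of these 6 rose and 3 fell from 1 to 2 dpi (median log2FC = 0.51), 8 rose and 2 fell from 2 to 4 dpi (0.51), 2 rose and 5 fell from 4 to 7 dpi (-0.46), and 9 rose and 7 fell from 1 to 7 dpi (0.45). The medians over all genes were 0.01, 0.04, -0.03 and 0.16. Igf1, a growth factor for muscle, was at 8.49 to 12.6 CPM at 1 dpi and 165 to 234 CPM at 7 dpi (log2FC = 4.23, SE of 0.34, adjusted P = 1.61e-07, edgeR). Axl, a receptor for the uptake of dying cells, rose from 2 to 4 dpi (3.41, SE of 0.32, adjusted P = 6.15e-06), as did Itgax, which encodes CD11c (1.98). Clec7a, a receptor for fungal glucan, fell from 1 to 2 dpi (-2.08) and rose from 2 to 4 dpi (2.50). Cd36 (-2.02) and Vat1 (-1.29) fell from 4 to 7 dpi, when Apoe rose (2.48). Csf1, a growth factor for macrophages, fell from 1 to 7 dpi (-2.22), as Plin2 did.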

How the data were processed

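Macrophages of ischemic mouse muscle were profiled by Smart-seq2/3 RNA-seq in 12 libraries. Per the labels, reads were trimmed (Trim Galore 0.6.6), mapped to GRCm39 (HISAT2 2.2.1) and assigned to genes (Subread 2.0.1) by the authors, who deposited raw counts. A median of 83.1% of counts between 1 and 20 in a library were even. Whether mates were counted singly is not given in the sources used here, and if they were, small counts overstate the number of fragments.

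The fit used edgeR 4.0.16 in R 4.3.3. After filterByExpr and TMM scaling, all 12 libraries were fitted with a coefficient for each time point, and the quasi-likelihood test was adjusted within each comparison by the Benjamini-Hochberg method. DEGs had an adjusted P under 0.05 and an absolute log2FC above 1, as in the paper. Log2 CPM used a prior count of 2. Alternatives were RLE factors, DESeq2 1.42.0, limma-voom (limma 3.58.1), no filter, CPM above 1 in 3 libraries, only the 6 libraries compared, no fold threshold, the unnamed gene left out, a block on the replicate number, and leaving out each library in turn. The method was tested on simulated data.

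The members and the gene lists, written from general knowledge, were chosen with earlier results of these data known. Named genes are all members, for each list and comparison up to 4 called genes of smallest P in the direction of most calls and up to 2 in the other, the 3 genes of highest r with each member, and neighbours or near copies. Not all of them are given. Markers were listed for 12 cell types, and values are given for those that touch a result. Symbols came from a GRCm38 annotation by Ensembl ID (52081 of 55414 IDs). Promoter windows came from RefSeq (GRCm38.p6) and matched 6 of the 10 members, and their coordinates are not those of the count table's build. The CUT&Tag and flow cytometry data of the paper were not analysed here.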

Additional observations from a re-analysis of the deposited data

How the results depend on the processing

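Over 20 alternatives, 7 calls remained in each: Gpnmb and Trem2 rose between 1 and 2 dpi, Gpnmb, Trem2 and Fabp4 rose between 1 and 7 dpi, and Plin2 fell between 2 and 4 dpi and between 1 and 7 dpi. No called change reversed. The step from 4 to 7 dpi depended most on the processing. Its 2 called members became 1 with RLE factors, with CPM above 1 in 3 libraries or with the unnamed gene left out, 0 with only the 6 libraries compared, and 5 with limma-voom, with no filter or with the replicate number as a block, where Gpnmb, Fabp5 and Lgals3 were called as well. DESeq2 also called 2, Spp1 and Lgals3, without Plin2. Spp1 was called in 17 of the 20 and Plin2 in 9. Leaving out a library gave 2 to 5 members from 1 to 2 dpi (5 without replicate 3 of 1 dpi), 1 to 3 from 2 to 4 dpi, 0 to 5 from 4 to 7 dpi (0 without replicate 1 of 4 dpi and 5 without replicate 3 of 7 dpi), 4 to 6 from 1 to 7 dpi and 5 to 9 for any time point. The other counts stayed within 1.5 times. Among all genes, 58.8% of the DEGs from 4 to 7 dpi rose, and 70.3% with DESeq2. The median log2FC of all genes from 1 to 7 dpi was 0.16, and 0.24 with RLE factors, DESeq2 or the unnamed gene left out. The cause was not tested.

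Values near 0 changed sign. Plin2 from 1 to 2 dpi was 0.01 with limma-voom or the block, 0 without the unnamed gene and -0.20 to 0.24 with a library left out. Fabp5 from 1 to 7 dpi was -0.46 with limma-voom, -0.01 with 6 libraries, -0.17 with the block and -0.47 to 0.53 with a library left out. With a library left out, values from 2 to 4 dpi were -0.13 to 0.27 (Fabp4), -0.38 to 0.03 (Cd9) and -0.27 to 0.13 (Lgals3). From 4 to 7 dpi they were -0.56 to 0.07 (Trem2 and Cd9), -0.57 to 0.15 (Tyrobp), -0.03 to 0.43 (Fabp4) and -0.45 to 0.09 (Lpl), and from 1 to 7 dpi -0.56 to 0.16 (Tyrobp) and -0.23 to 0.92 (Lpl). The labels do not say if replicate numbers pair the libraries, and the values that follow do not decide it. The deviations of 18 same-numbered pairs had r of -0.133 to 0.127, 1 of them above 0.1, and 8 of 12 libraries were closest to their own number. The block changed the count of members from 4 to 7 dpi alone among the steps. Counts of a member in a library ranged from 96 (Fabp4) to 197058 (Spp1), so counting error was largest for Fabp4.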
